A study of Saccharomyces cerevisiae with 91 samples.

Results

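The yeast strain rtt109d lacks RTT109, the gene of a histone acetyltransferase, and it was set against BY4741, the wild-type strain of the study. Its members were taken by strain label: 5 of the 91 samples carry the name rtt109d and 20 carry BY4741 at 30 °C. Both strains of Saccharomyces cerevisiae were grown in rich YPD medium at 30 °C to mid-log phase (an optical density of about 0.55) and fixed for 15 min in 3% formaldehyde, and neither received a drug. Chromatin was cut by micrococcal nuclease almost wholly to single nucleosomes and religated, so that each sequenced pair joins fragments that lay close together in the nucleus (Micro-C). The 5 rtt109d libraries are 3 replicates, since replicates 1 and 2 each had 2 libraries, which were summed. The table of pairs that span nucleosome-depleted regions (NDRs, the gaps in the nucleosome array found mostly at promoters) gave BY4741 16 replicates from 18 libraries. The labels do not tie replicates to separate cultures, so the p-values below rest on library-to-library spread, which may be technical.

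Rtt109 acetylates lysine 56 of histone H3 on newly made histones, with the chaperones Asf1 and Vps75 as partners, before the histones are laid down behind the replication fork. The sirtuins Hst3 and Hst4 remove the mark later in the cell cycle. The mark is known for its part in nucleosome assembly, replisome stability and histone turnover at promoters, and in budding yeast Rtt109 is known to keep the tandem array of ribosomal RNA genes (rDNA) on chromosome XII from growing. RTT109 itself is named for the regulation of Ty1 transposition.

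The labels were first checked at the genes that should differ. RTT109 (chromosome XII, 146291 to 147601, sacCer3) held 28 reads in the pooled rtt109d column of the gene table, against 13828 reads in the pooled BY4741 column. Relative to the reads of all genes, rtt109d stood at 0.923% of BY4741 (95% exact interval 0.613 to 1.34%, counting error only), as the label says. Among 6586 genes with at least 100 BY4741 reads, the 3 with the highest ratio of rtt109d to BY4741 were marker genes of amino acid or pyrimidine synthesis, and they were picked out after their values were seen. LEU2, of leucine synthesis, had a short-fragment signal of 589 in rtt109d and 10.9 in BY4741. URA3, of uracil synthesis, had 432 in rtt109d and 17.0 in BY4741, and MET17, of homocysteine synthesis, had 666 in rtt109d and 7.42 in BY4741. BY4741 is a laboratory strain from which these 3 genes were removed on purpose, along with part of HIS3, for which the signal was 572 in rtt109d and 301 in BY4741. The pooled rtt109d column held reads at the first 3 genes far above BY4741, so the strains compared differed at more loci than RTT109, and the part of those differences in the results below was not tested. The pooled column does not show whether this holds for each replicate.

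NDR-spanning pairs numbered 404715, 433015 and 854234 in rtt109d replicates 1, 2 and 3, and 105690 to 1304896 in the BY4741 replicates. The repeat libraries of a replicate differed by a chi-square per degree of freedom of 1.47 for replicate 1 and 1.32 for replicate 2. Different rtt109d replicates differed by 2.79 to 10.6 on the same measure. It was taken on raw counts over all NDRs, rDNA included, and grows with depth. Repeat libraries are parts of a replicate, so these values do not compare the kinds of spread at equal depth. Each rtt109d replicate had 319 to 495 of the 6687 single-copy NDRs below every BY4741 replicate and 430 to 713 above every one. BY4741 replicates set against the other 15 in the same way had 44 to 1990 below (median 244) and 61 to 1648 above (median 276.5). BY4741 replicate 17 gave the highest of both BY4741 counts.

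The rDNA array took a larger share of NDR-spanning pairs in rtt109d than in BY4741. The 7 NDRs of the array window on chromosome XII (positions 451306 to 468957), which stand for all copies of the repeat, took 35.8%, 51.1% and 54.7% of NDR-spanning pairs in rtt109d replicates 1, 2 and 3. In BY4741 they took 12.8 to 29.2% (median 21.6%). All 3 rtt109d replicates thus lay above all 16 BY4741 replicates, and they ranked 3, 2 and 1 among the 49 replicates of all strains and conditions in the table. The means were 47.2 ± 10.0% in rtt109d (SD, n = 3) and 21.5 ± 4.11% in BY4741 (SD, n = 16), a difference of 25.7 percentage points. An exact two-sided permutation test of replicate labels gave p = 0.00103, the smallest it can give, and 0.00722 after Benjamini-Hochberg adjustment over 7 library measures. The column headers carry a number whose meaning no label explains, and 2 pairs of rtt109d and BY4741 replicates share one. Within them the share was 51.1% in rtt109d against 20.6% in BY4741, and 54.7% in rtt109d against 16.5% in BY4741. More copies of the repeat and more spanning pairs per copy cannot be told apart in these values.

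**Figure D1:**
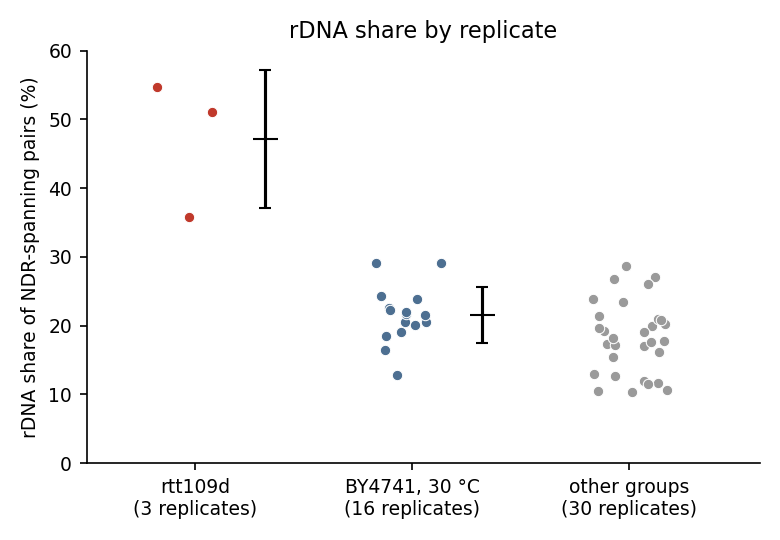
Share of NDR-spanning pairs at the 7 rDNA NDRs (y axis, percent) in each replicate of rtt109d (left), of BY4741 (middle) and of the other 30 replicates in the table (right); points are replicates, and the black marks are the mean ± SD of the first 2 groups. The rtt109d replicates lie at 35.8 to 54.7%, above the BY4741 range of 12.8 to 29.2%.

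All 7 rDNA NDRs rose in rtt109d, a count that the overall rate of calls helps to place: edgeR's quasi-likelihood test with Benjamini-Hochberg adjustment called 54 of 6719 NDRs (0.804%), 37 of them higher in rtt109d (0.551%). The log2 fold changes ran from 1.33 to 2.04 with a median of 1.85. At the NDR at position 460158, rtt109d replicates had 94031, 198901 and 289200 CPM (pairs per 1000000 NDR-spanning pairs, after edgeR's TMM scaling) and BY4741 had 21229 to 73924 (median 47315). The rtt109d replicates did not overlap BY4741 there, nor at 5 of the other 6 rDNA NDRs. The exception was the NDR at 468957, near the edge of the array, with 10104, 18049 and 28736 CPM in rtt109d against 3068 to 13809 CPM in BY4741. Replicate 1 was the lowest of the rtt109d replicates at every rDNA NDR, with a median log2 ratio to the BY4741 mean of 1.00, against 1.97 in replicate 2 and 2.27 in replicate 3. Without rtt109d replicate 3, 2 of the 7 passed the test, and without rtt109d replicate 2, 6 did. With library sizes taken from all listed pairs, none of the 7 passed, at log2 values of 0.67 to 1.34.

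Higher values reached past the array on both sides. Within 10 kb of the annotated rRNA genes (451786 to 489469) but outside the window above lay 25 NDRs, a set drawn after their values were seen. Of these, 18 rose and none fell (72% called), with log2 fold changes of 0.81 to 1.54 over all 25 and a median of 1.22. On the left side, the NDR upstream of ACS2, an acetyl-CoA synthetase gene, had 855, 1307 and 1958 CPM in rtt109d and 247 to 1221 CPM (median 528) in BY4741, with replicate 1 inside the BY4741 range. On the right side, the NDR upstream of PUS5, which encodes a pseudouridine synthase, had 272, 345 and 521 CPM in rtt109d and 99.5 to 273 CPM (median 163) in BY4741, with replicate 1 at the upper edge of BY4741. Farther out the change was no longer seen: the 29 NDRs that follow on the left within 60 kb had a median log2 fold change of 0.09 (-0.29 to 0.30), and the 18 on the right had -0.07 (-0.32 to 0.36). At 4 of the 25 flanking NDRs all 3 rtt109d replicates exceeded every BY4741 replicate, and none of the 25 passed without rtt109d replicate 3 (9 without replicate 2) or under scaling to all listed pairs.

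The short-fragment signal of the single-copy genes in the flanks differed less between the strains than their NDRs did. Given as log2 of rtt109d over BY4741 and relative to the median of all genes (0.22), it was 0.40 for PCD1, 0.23 for YLR152C, -0.19 for ACS2, 0.06 for RNH203, -0.05 for MAS1, 0.01 for SHH4, 0.33 for PUS5, 0.18 for SEC10 and -0.40 for RPS31. The 4 copies of ASP3, which encode an asparaginase, had -0.04 to -0.12 on that scale. These are pooled columns with no replicates, and the genes inside the array, such as TAR1, are listed at 0 in both strains.

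**Figure D2:**
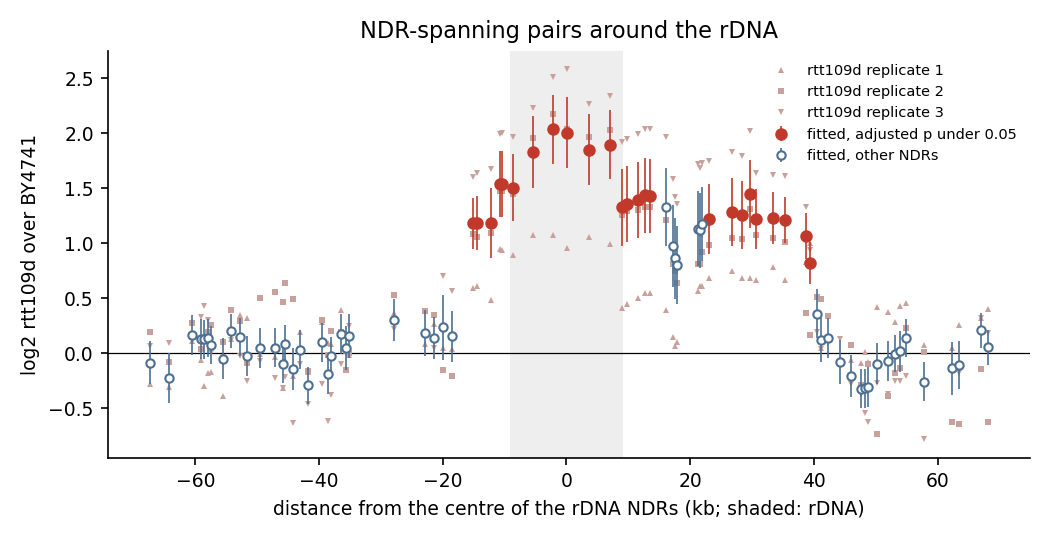
Log2 fold change of NDR-spanning pairs, rtt109d over BY4741 (y axis), at NDRs along chromosome XII by distance from the centre of the rDNA NDRs (x axis, kb; the array is shaded); circles are fitted values with their SE, filled where they passed the test, and small marks are the rtt109d replicates. Fitted values are 1.33 to 2.04 inside the array, 0.81 to 1.54 in the flanks and between -0.32 and 0.36 beyond them. The NDRs next to each other across the array's edges have like values, 1.54 outside and 1.50 inside on the left, and 1.33 inside and 1.36 outside on the right.

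Over single-copy NDRs few differences passed the test. Of 6687, 29 were called (0.434%), 12 higher in rtt109d (0.179%) and 17 lower (0.254%), and 664 had an unadjusted p under 0.05 (9.93%). The calls fell into 15 loci when NDRs within 10 kb of each other were joined, 9 lower and 6 higher in rtt109d, and 7 of the loci were a single NDR. Within 30 kb of a chromosome end lay 9 of the 17 lower NDRs and 3 of the 12 higher ones, beside 501 of all 6687 single-copy NDRs. All 3 rtt109d replicates lay below every BY4741 replicate at 13 of the 17 lower NDRs, against 0.568% of all single-copy NDRs, and above every one at 5 of the 12 higher NDRs, against 0.374%. The count depended on single replicates. Without rtt109d replicate 1, 44 were called (0.658%), 12 higher and 32 lower in rtt109d, and 22 of them were among the 29. Without replicate 2 there were 7 (0.105%), 0 higher and 7 lower, and without replicate 3 there were 9 (0.135%), 4 higher and 5 lower, all among the 29. Other settings gave 24 calls with the 2 strains alone in the fit (0.359%), 28 with the rDNA left out of the scaling (0.419%), 29 with no filter on low counts (0.434%), 37 without BY4741 replicate 17 (0.553%) and 31 with DESeq2 (0.464%). A block on the replicate number gave 36 (0.538%), a block on the header number gave 91 (1.36%), and library sizes from all listed pairs gave 4 (0.0598%). The balance of directions moved with these settings, with 66 higher and 25 lower under the header-number block and 0 higher and 4 lower with all listed pairs. The 5 that held without each rtt109d replicate in turn included both NDRs at RTT109, the deleted gene, and both at PSE1. The other lay at position 6210 of chromosome VII. The NDRs at PSE1 did not pass under the header-number block (edgeR adjusted p = 0.233 at 888808 and 0.0954 at 889217).

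**Figure D3:**
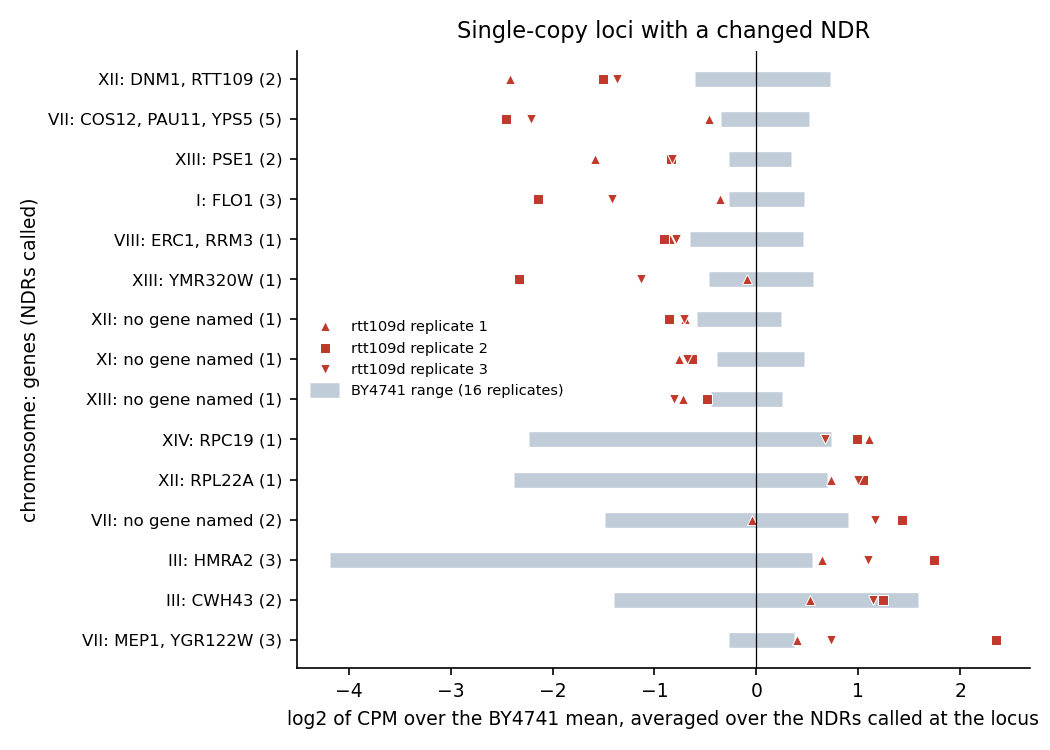
Each rtt109d replicate at the 15 single-copy loci with a called NDR, as log2 of CPM over the BY4741 mean averaged over the locus's called NDRs (x axis), with the BY4741 range as a bar; loci are named by chromosome and gene, with the number of called NDRs in brackets. Replicate 1 lies nearest to BY4741 at COS12 and FLO1, and replicate 2 lies far above the others at MEP1.

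The deleted gene stood among the strongest losses. The NDR inside RTT109 (chromosome XII, 146617) had 15.1, 31.4 and 36.0 CPM in rtt109d and 68.2 to 141 CPM (median 81.7) in BY4741, a log2 fold change of -1.66 ± 0.26 (SE, edgeR adjusted p = 1.96e-05). Its neighbour at 147732, upstream of DNM1, a dynamin-related gene of mitochondrial fission, had 15.1, 27.5 and 28.8 CPM in rtt109d and 43.0 to 141 CPM (median 79.0) in BY4741 (log2 -1.85 ± 0.27, adjusted p = 9.2e-06). Neither overlapped BY4741, and both passed in all 11 alternative fits. Replicate 1 held 5 pairs at each. DNM1 itself was present, with a short signal of 1225 in rtt109d and 1087 in BY4741.

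A run of losses lay at the left end of chromosome VII. All 5 NDRs from 2576 to 8385 fell, over COS12 (a member of a subtelomeric gene family), PAU11 (a seripauperin gene) and YPS5 (related to the aspartyl protease genes). At position 6210 the values were 90.6, 11.8 and 16.8 CPM in rtt109d and 102 to 224 CPM (median 130) in BY4741, and at 8385 they were 66.4, 51.0 and 40.8 CPM in rtt109d against 85.4 to 141 CPM (median 98.9) in BY4741. The log2 fold changes of the 5 ran from -0.99 to -1.72, the last with an adjusted p of 8.82e-06. The replicates were unlike each other: over the 5 NDRs replicate 1 stood at 0.726 of the BY4741 mean, near the lowest BY4741 replicate (0.784), whereas replicates 2 and 3 stood at 0.182 and 0.215. Adjusted p-values over the 11 alternative fits ran up to 0.557 at 2576 and up to 0.0151 at 6210. The short signal of COS12 was 105 in rtt109d and 420 in BY4741, so the pooled gene table was low at the same place.

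At the other chromosome ends with a called loss, replicates 2 and 3 also stood lower than replicate 1. Not every end was like this. At the right end of chromosome X the median log2 ratio to the BY4741 mean was -0.48, -0.09 and -0.19 in replicates 1, 2 and 3. At the right end of chromosome I, 3 NDRs from 200525 to 206481 beside and inside FLO1, a flocculation gene, fell. The one at 202656, left of the gene, had 121, 31.4 and 64.9 CPM in rtt109d and 135 to 249 CPM (median 176) in BY4741 (log2 -1.202 ± 0.224, edgeR adjusted p = 0.000601, 1.01e-05 to 0.127 over the alternative fits). Over the 3 NDRs the replicates stood at 0.780, 0.226 and 0.374 of the BY4741 mean, all below the lowest BY4741 replicate (0.833), and none of the 3 passed without replicate 2 or without replicate 3 (the adjusted p at 202656 was then 0.0888 and 0.0640). At YMR320W near the right end of chromosome XIII the values were 115, 23.5 and 55.3 CPM in rtt109d, against 88.7 to 181 CPM (median 119) in BY4741. That call was lost without replicate 2 or without replicate 3.

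At the right end of chromosome XIV no NDR passed, although replicates 2 and 3 again stood far below replicate 1. The NDR upstream of AIF1, which encodes an apoptosis-inducing factor, had 314, 58.9 and 40.8 CPM in rtt109d and 111 to 645 CPM (median 184) in BY4741. The 13 NDRs within 30 kb of that end had a median log2 ratio to the BY4741 mean of 0.31 in replicate 1, -1.50 in replicate 2 and -1.30 in replicate 3. In the pooled gene table, AIF1 had a short signal of 189 in rtt109d and 780 in BY4741, and PDR18, a drug transporter gene of the same end, had 530 in rtt109d and 1801 in BY4741. Chromosome ends as a class did not shift: the 501 single-copy NDRs within 30 kb of one had a median log2 fold change of -0.02, against 0.01 over the other 6186. Such ends carry sequence that is shared between chromosomes and differs between yeast strains, and whether fewer copies of an end or fewer spanning pairs per copy lie behind these values was not tested.

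Away from the ends, all 3 rtt109d replicates lay below BY4741 at every loss. The NDR inside PSE1, a karyopherin gene of nuclear import (chromosome XIII, 889217), had 30.2, 51.0 and 55.3 CPM in rtt109d and 76.8 to 131 CPM (median 95.1) in BY4741 (log2 -1.14 ± 0.21, edgeR adjusted p = 0.00041, 0.000277 to 0.0954 over the alternative fits). Its neighbour at 888808, between GAS1 and PSE1, also fell, with no overlap between the groups at either. PSE1 was present, with a short signal of 2043 in rtt109d and 2052 in BY4741. The remaining losses were single NDRs at or near RRM3 and ERC1 on chromosome VIII, at 55836 of chromosome XI (between EAP1 and TOR2), at 382375 of chromosome XII (between MSL5 and CLF1) and at 277500 of chromosome XIII (between TAF4 and PLB2). These 4, like 206481, 888808 and 916631 above and 703038 and RPC19 below, fall outside the naming rule and were chosen after their values were seen. RRM3 encodes a helicase that helps replication forks past bound proteins, the rDNA included, and ERC1 encodes a transporter. TOR2 encodes a growth-control kinase, MSL5 and CLF1 encode splicing factors, TAF4 encodes a subunit of the TFIID complex and PLB2 a phospholipase. Their log2 fold changes ran from -0.70 to -0.84, and at these 4 the rtt109d replicates lay between 0.534 and 0.717 of the BY4741 mean, below every BY4741 replicate. Each lost its call when any 1 rtt109d replicate was left out.

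The gains with the lowest adjusted p lay at a locus that 1 replicate decided. The 3 NDRs at MEP1, an ammonium permease gene, and YGR122W (chromosome VII, 733070 to 733640) had log2 fold changes of 1.35 to 1.38. At 733640, upstream of YGR122W, rtt109d had 115, 420 and 151 CPM and BY4741 had 69.2 to 105 CPM (median 86.8), so that all 3 replicates exceeded BY4741 but replicate 2 stood far above the other two. The edgeR adjusted p was 4.09e-06, and without replicate 2 it was 0.108 there and 0.476 and 0.223 at the other two (over the alternative fits, 9.71e-09 to 0.518 at 733640). The short signal did not follow, with 1282 in rtt109d and 1153 in BY4741 for MEP1.

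The silent mating-type locus HMR rose, the only one of the 3 mating-type loci with a call. HMR holds a silenced copy of the a-type genes and HML a silenced copy of the alpha-type genes, while MAT is the expressed locus. In the reference genome MAT carries the alpha-type genes: its NDRs at 199555 and 200780 lie inside MATALPHA2 and MATALPHA1. BY4741 is MATa, so pairs from its expressed a-type genes may be counted at HMR. The values at HMR and MAT therefore do not compare silent with expressed genes. The mating type of rtt109d was not checked. At position 292683, left of HMRA2, rtt109d had 54.4, 129 and 76.9 CPM and BY4741 had 8.60 to 52.8 CPM (median 33.8), with no overlap (log2 1.21 ± 0.23, edgeR adjusted p = 0.000667, 9.31e-05 to 0.485 over the alternative fits). The NDRs at 293196, inside HMRA2, and at 294841 also rose (log2 1.08 and 1.05), and the median over the locus's 6 NDRs was 0.94. The 5 NDRs at MAT had a median of 0.39 and the 12 at HML had -0.21, with none called, and the difference between the loci was not tested. Under scaling to listed pairs the medians were 0.07 at HMR, -0.35 at MAT and -1.03 at HML, beside -0.76 over all single-copy NDRs. At HMR, replicate 2 was again the highest: the locus stood at 1.56, 3.34 and 2.14 times the BY4741 mean in replicates 1, 2 and 3, BY4741 replicates reached 1.46, and 1 BY4741 replicate, number 17, held no pair at 2 of the 3 called NDRs. No HMR call held without replicate 2 (adjusted p 0.223 to 0.434), and 1 held without replicate 3. The short signal was 218 in rtt109d and 202 in BY4741 for HMRA2, and 288 in rtt109d and 212 in BY4741 for HMRA1.

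Some of the other gains overlapped BY4741. Near CWH43, a gene of lipid remodelling on chromosome III, the NDR at 150089 had 27.2, 54.9 and 60.1 CPM in rtt109d and 4.30 to 68.8 CPM (median 17.5) in BY4741 (log2 1.41 ± 0.29, edgeR adjusted p = 0.00238, lost without replicate 2 at 0.0745 and without replicate 3 at 0.405, 0.000358 to 0.405 over the alternative fits). Near CLB1, a B-type cyclin gene on chromosome VII, the NDR at 702736 had 63.4, 169 and 139 CPM in rtt109d and 21.5 to 117 CPM (median 58.0) in BY4741, with replicate 1 near the BY4741 median. It rose (log2 1.06 ± 0.22, edgeR adjusted p = 0.00204), and so did its neighbour at 703038, and neither passed without replicate 2 or without replicate 3. Upstream of RPL22A, the gene of a large-subunit ribosomal protein, rtt109d had 81.5, 102 and 98.5 CPM and BY4741 had 8.60 to 79.6 CPM (median 47.0), with no overlap (log2 0.94 ± 0.24, adjusted p = 0.0320). Upstream of RPC19, which encodes a subunit shared by RNA polymerases I and III, the values were 124, 114 and 91.3 CPM in rtt109d and 11.4 to 95.1 CPM (median 53.7) in BY4741. The calls at RPL22A and RPC19 were lost when any 1 rtt109d replicate was left out.

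Over the NDRs assigned by start codon to the 20 gene lists, RPL22A gave the only call, beside 0.434% called over all single-copy NDRs. The promoters of ribosomal protein genes shifted together to slightly higher values: 79 of their 100 NDRs lay above 0 with a median log2 fold change of 0.20, against 51.1% above 0 and a median of 0.01 over all single-copy NDRs. They took 0.651%, 0.646% and 0.627% of single-copy pairs in rtt109d replicates 1, 2 and 3, and 0.472 to 0.625% (median 0.563%) in BY4741, so the groups lay apart by a narrow gap. This direction is relative to the other NDRs. Scaled to all listed pairs, a fit in which the median single-copy NDR shifted to -0.76, the list's median was -0.58 and 72 of the 100 lay above the median NDR. The 55 NDRs of ribosome biogenesis genes had a median of 0.05 with 33 above 0.

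The machinery of H3K56 acetylation and of the chaperones that handle the acetylated histone showed no called NDR among those assigned by start codon. Only 0.434% of all single-copy NDRs were called, so a list this short would mostly hold none. Such NDRs were found for 11 of the 18 genes of the list, and the called NDR inside RTT109 was not among them. The 11 NDRs ran from -0.38 to 0.27 (median -0.05, 3 above 0). At the chaperone gene ASF1 rtt109d had 118, 78.5 and 96.1 CPM and BY4741 had 65.8 to 125 CPM (median 90.6). At VPS75, the partner chaperone gene, rtt109d had 99.7, 54.9 and 60.1 CPM and BY4741 had 65.8 to 136 CPM (median 92.1). The groups overlapped at both. The promoter of the deacetylase gene HST3 had 45.3, 62.8 and 55.3 CPM in rtt109d and 17.2 to 69.5 CPM (median 54.9) in BY4741, and that of HST4 had 54.4, 54.9 and 64.9 CPM in rtt109d and 43.0 to 103 CPM (median 58.4) in BY4741. The lowest of the list was HPC2, a subunit gene of the HIR histone chaperone complex (log2 -0.38 ± 0.18, edgeR adjusted p = 0.440), and the highest was SPT10, a gene of an activator of histone genes (0.27 ± 0.16, adjusted p = 0.572). CAC2 and RLF2, subunit genes of the CAF-1 chaperone, had 0.17 and -0.15, and RTT106, a chaperone gene, had -0.02.

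The histone genes themselves gave no call either, beside the same 0.434% over all single-copy NDRs. Their 10 NDRs ran from -0.10 to 0.45 with a median of -0.01. The shared promoter of HHT1 and HHF1, which encode H3 and H4, had 295.9, 208 and 276 CPM in rtt109d and 117 to 301 CPM (median 207) in BY4741 (log2 0.44 ± 0.26, edgeR adjusted p = 0.553). The list took 0.119 to 0.120% of single-copy pairs in rtt109d and 0.0781 to 0.122% (median 0.109%) in BY4741, at the upper end of the BY4741 range but inside it.

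Lists of replication, damage and cell cycle genes had promoter medians close to the 0.01 of all single-copy NDRs. The 24 NDRs of DNA replication genes had a median log2 fold change of 0.03 and the 20 of the DNA damage response had -0.06. The 13 of G1 and S phase cyclins and their targets had 0.04 and the 11 of G2 and M phase genes had 0.06. None was called, beside 0.434% of all single-copy NDRs. MCM7, a replicative helicase subunit gene, stood lowest of the replication list at -0.59 ± 0.24 (edgeR adjusted p = 0.336). The stress-induced genes had 4 of 15 above 0 (median -0.13). BY4741 is a MATa haploid, and the markers of mating type and sporulation gave no call in either direction over 5 a-cell, 1 alpha-cell and 2 sporulation NDRs (medians -0.04, 0.03 and 0.16). These NDRs measure contacts across a promoter and not the activity of the gene.

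NDRs near repeated or boundary sequence were examined next. The 169 NDRs within 500 bp of a tRNA gene had a median log2 fold change of 0.14, with 120 above 0. Of them 1 was called, beside 0.434% of all single-copy NDRs. They took 2.37 to 3.03% of single-copy pairs in rtt109d against 1.94 to 3.12% in BY4741. The 124 NDRs at 31 long open reading frames of like length with suffixed names, members of repeated families whose reads can be split between copies, had a median of 0.15 with 96 above 0 and none called. They took 5.84%, 6.61% and 8.02% of single-copy pairs in rtt109d and 4.38 to 10.2% (median 5.90%) in BY4741, so the rtt109d replicates lay inside the BY4741 range. Both medians fell below 0, to -0.62 and -0.56, under scaling to all listed pairs, and stayed above that fit's median NDR. The 2341 NDRs within 200 bp of a boundary of the chromatin domains called in wild type had a median of 0.00 and took 27.2 to 29.1% of single-copy pairs in rtt109d, against 25.9 to 29.7% in BY4741.

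Measures of the fibre as a whole overlapped between the strains. The log2 of NDR-spanning pairs over all listed pairs averaged -3.98 ± 1.10 in rtt109d (SD, n = 3) and -3.85 ± 0.53 in BY4741 (SD, n = 16; exact permutation, adjusted p = 0.879). Single rtt109d replicates ran from -5.05 to -2.86, past the BY4741 range at both ends. This measure counts rDNA pairs, which averaged 47.2% of NDR-spanning pairs in rtt109d and 21.5% in BY4741. It therefore does not give the level at single-copy NDRs. In the fit scaled to all listed pairs, the median single-copy NDR had a log2 fold change of -0.76. Same-direction pairs are those in which both reads point the same way along the chromosome. Their log2 ratio between distances of 500 to 1000 bp and of 100 to 500 bp compares far with near neighbours, and it averaged -2.32 ± 0.13 in rtt109d (n = 3) and -2.24 ± 0.26 in BY4741 (n = 16; exact permutation, adjusted p = 0.847). The slope of contact decay from 1000 to 10000 bp on log10 axes averaged -1.24 ± 0.09 in rtt109d (n = 3) and -1.24 ± 0.11 in BY4741 (n = 16; exact permutation, adjusted p = 0.968).

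Longer contacts were somewhat scarcer on average in rtt109d, and the first and second ladder peaks somewhat farther apart, but neither difference passed the adjustment over 7 measures. Same-direction pairs beyond 1000 bp made up 15.2%, 11.8% and 15.4% in rtt109d and 13.7 to 20.4% (median 17.4%) in BY4741. The difference was -3.01 percentage points, with an exact permutation p of 0.0299 and an adjusted p of 0.105. Replicate 2, the lowest, also had the lowest share of same-direction pairs among listed pairs (3.58%, against 7.33% and 9.73% in replicates 1 and 3 and 5.95 to 16.2% in BY4741). It had the highest share of inward-facing pairs, which include uncut neighbours, at 93.3%, against 84.3% and 80.3% in replicates 1 and 3 and 71.5 to 90.0% in BY4741. Without replicate 2 the difference in the share beyond 1000 bp was -1.84 points, with an exact permutation adjusted p of 0.679 (0.0763 to 0.679 over the alternatives tested). The first and second peaks of the ladder lay 179, 181 and 166 bp apart in rtt109d and 158 to 180 bp (median 169.5) in BY4741, a mean difference of 6.396 bp with an exact permutation adjusted p of 0.253. Without rtt109d replicate 3 the difference was 11.1 bp with an exact permutation adjusted p of 0.0458, and over the tested alternatives that p ran up to 0.679. The first peak lay at 144, 140 and 154 bp in rtt109d and 143 to 166 bp in BY4741, and the second at 323, 321 and 320 bp in rtt109d and 316 to 332 bp in BY4741. The replicates with the widest spacing, 1 and 2, were those with the shortest first peak. On average the first peak lay at 146 bp in rtt109d and 154.8 bp in BY4741. The second averaged 321.3 bp in rtt109d and 323.8 bp in BY4741, so it was not farther out in rtt109d.

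**Figure D4:**
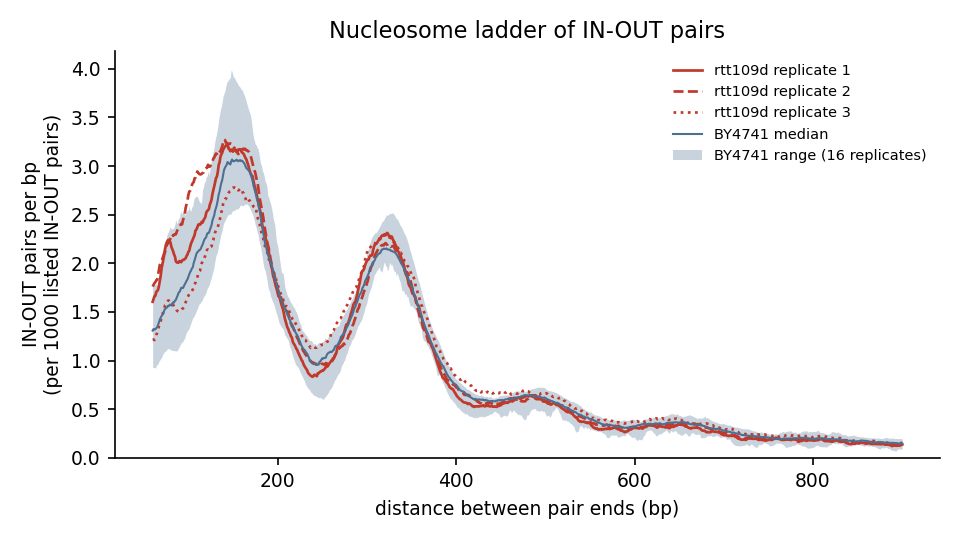
Density of IN-OUT pairs by distance between pair ends (x axis, bp) for the 3 rtt109d replicates (lines), with the BY4741 range and median behind them (y axis, pairs per bp per 1000 listed IN-OUT pairs). The first peak lies at 140 to 154 bp in rtt109d and 143 to 166 bp in BY4741, and the second at 320 to 323 bp in rtt109d and 316 to 332 bp in BY4741.

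The gene compaction scores moved down slightly in rtt109d, with ribosomal protein genes and a few small lists going the other way. The deposited score is a 2D-normalized log2 value built by the authors from long and short fragments within a gene, by steps that no label describes, and each strain has 1 pooled column, so there is no replicate check and no test. Of 4769 scored genes, 3098 had a lower score in rtt109d than in BY4741 (65%) and 1671 a higher one (35%). The median difference was -0.12 with an SD over genes of 0.35. The median differences of the other 10 pooled columns from BY4741 ran from -0.29 to 0.14, and all share the BY4741 column.

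Ribosomal protein genes were higher in rtt109d at 89 of 120 (74.2%), with a median difference of 0.24 and median scores of -0.87 in rtt109d and -1.10 in BY4741. The direction held within each of the length classes that had members. From the shortest class upward, the medians were 0.23 over 71 ribosomal protein genes, 0.26 over 45 and 0.16 over 4, and they were -0.05, -0.13 and -0.17 over the other genes of those classes. It was relative, however. The plain log2 ratio of long over short signal differed by a median of -0.82 over all scored genes and -0.51 over the ribosomal protein genes, so on that scale both were lower in rtt109d. RPL9B led with -0.16 in rtt109d and -1.37 in BY4741, followed by RPL28 (-0.31 in rtt109d, -1.43 in BY4741) and RPS26B (-1.02 in rtt109d, -2.13 in BY4741). RPS2 stood at the other end with -1.94 in rtt109d and -1.01 in BY4741. Long-fragment reads behind these 4 numbered 17 to 37 in rtt109d, and many ribosomal protein genes have near-identical copies between which reads can be split. In the other pooled columns the list's median difference from BY4741 ran from -0.18 to 1.66.

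Several other lists had a larger share of lower members than the scored genes as a whole, but the pooled columns give no test of this. The G1 and S phase genes were lower in rtt109d at 13 of 14 (median -0.31), the DNA damage response genes at 14 of 17 (-0.29), the DNA replication genes at 21 of 26 (-0.22), the glycolytic genes at 14 of 18 (-0.29) and the galactose genes at 5 of 5 (-0.35), beside 65% of all scored genes. The G2 and M phase genes (11 of 13, median -0.12) and the chromatin remodelling and silencing genes (16 of 20, median -0.14) had medians close to the -0.12 of all scored genes. Exact intervals of these shares were 66.1 to 99.8% for G1 and S phase, 60.6 to 93.4% for DNA replication and 56.6 to 96.2% for the DNA damage response. They count genes as independent, rest on 1 pooled column per strain and were not adjusted over the 20 lists. They therefore cannot set any list apart from 65%. These lists were not compared with genes of like length. Outside the ribosomal protein genes, 45.3% of the shortest length class were above 0, against 27.9% of the longest. Genes of the H3K56 acetylation list were lower at 10 of 18 (median -0.085), close to the median of all genes, and spread from -0.67, at the deleted RTT109 with its few remaining reads, to 1.13 at HIR2. Small lists with a median above 0 were the histone genes (0.24 over 4 genes) and the Hsf1 targets (0.05 over 15). The a-cell (0.21 over 2), alpha-cell (0.18 over 3) and sporulation markers (0.26 over 3) also had medians above 0.

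Among genes whose signals were above the median in both columns (2917 scored), the lowest difference was at ANT1, a peroxisomal adenine nucleotide transporter gene, with a score of -0.39 in rtt109d and 0.81 in BY4741. HXT6, a hexose transporter gene, had -0.32 in rtt109d and 0.85 in BY4741, and MEP2, an ammonium permease gene, had -0.54 in rtt109d and 0.61 in BY4741. TPO3, a polyamine transporter gene, the mitochondrial AI4, the telomeric element TEL12R-YP2, and SIM1, ALG3, FSF1 and ARG7 also stood between -0.998 and -1.14. The highest was CHA1, a serine and threonine deaminase gene beside HML on chromosome III, with 0.77 in rtt109d and -0.44 in BY4741. It was followed by PRM7 (difference 0.98), TEF2, which encodes translation elongation factor 1 alpha (0.73), GLN4, a glutaminyl-tRNA synthetase gene (0.72), SHO1, an osmosensor gene (0.67), YLL054C (0.67), TRM5 (0.65), GTR1 (0.64), CDC19, the pyruvate kinase gene of glycolysis (0.61), and ARP5 (0.60). TEF2 has a near-identical copy elsewhere in the genome. Over all scored genes, 235 had differences above 0.5 (4.93%) and 542 below -0.5 (11.4%).

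**Figure D5:**
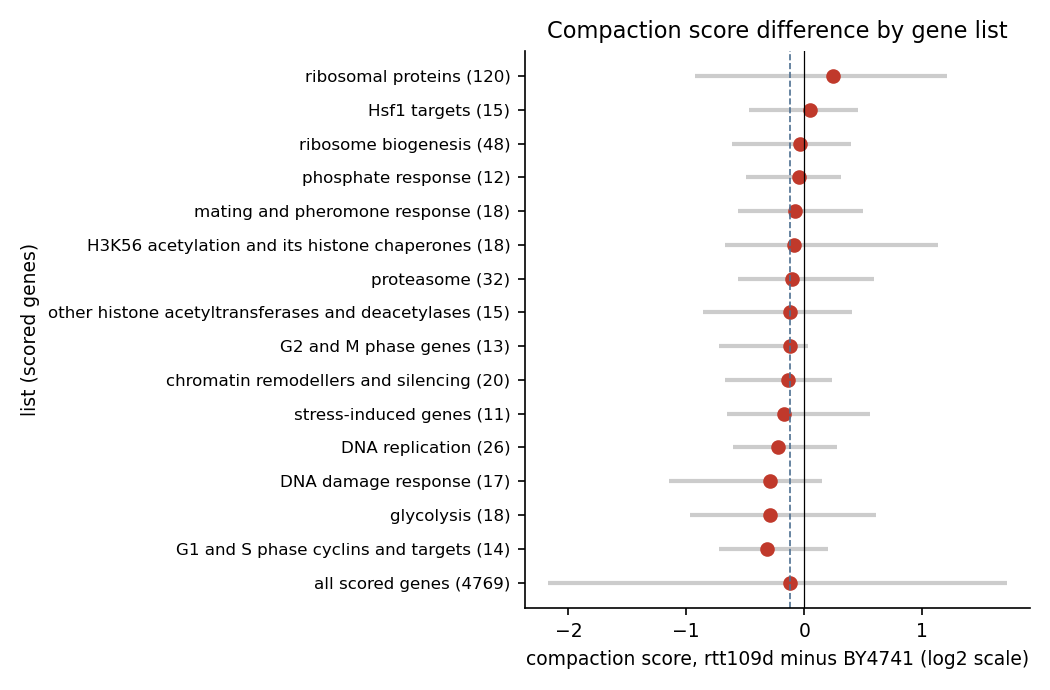
Compaction score difference, rtt109d minus BY4741 (x axis, log2 scale), for each gene list with at least 10 scored genes (y axis, number of scored genes in brackets); points are list medians, grey bars run from the lowest to the highest gene, and the dashed line is the median of all scored genes. Ribosomal protein genes have a median of 0.24 and G1 and S phase genes one of -0.31, beside -0.12 for all scored genes.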

How the data were processed

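The members, gene lists and tests were chosen with earlier results of these data known, and nothing here is independent of them. Reads were aligned to sacCer3, and the submitters' processing notes name CASAVA 1.8.2 and Bowtie2. The deposited NDR and distance tables hold raw counts of read pairs per library, per the file headers. How the authors counted spanning pairs is not stated in the sources used here. The gene table's long and short signal values were scaled by the authors per pooled column, and each value was a whole multiple of 1 read's worth (100% within 0.05 of a whole number). Its log2 values were 2D-normalized by the authors, in steps no label gives, and the deposited boundary score is the authors' own. Repeat libraries were summed. Another 200 value columns in 8 tables, of other strains or matched to no sample, were not used.

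Counts at 6719 NDRs in 49 replicates went into 1 quasi-likelihood fit of edgeR 4.0.16 in R 4.3.3, with TMM scaling, the filterByExpr filter and a Benjamini-Hochberg threshold of 0.05. DESeq2 1.42.0 was an alternative. The edgeR fit and the library measures were tested on simulated data. Library measures were compared by two-sided exact permutation of 3 against 16 replicates. Pandas 2.3.3 and scipy 1.17.1 were used in Python 3.11.15. Named NDRs were the 10 highest and 10 lowest called single-copy NDRs with all 3 rtt109d replicates on 1 side of the BY4741 mean. Named genes of the compaction table were the 10 highest and 10 lowest with both signals above the median in both columns. Within a list, called NDRs or else the 2 largest changes were named, with every NDR of the H3K56 list, of rDNA and at HML, HMR and RTT109. Alternatives covered scaling, tool, filter, samples in the fit, blocks and left-out replicates. Intervals cover counting error only.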

Additional observations from a re-analysis of the deposited data

How the results depend on the processing

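No value changed sign among those that passed the main test. Single-copy calls, 29 in the main setting, ranged from 7 to 44 when 1 rtt109d replicate was left out, and came to 91 with the header number as a block, of which 18 were among the 29, and to 4 with all listed pairs as library size, a 2-strain fit added after seeing the data. The planned version of that scaling over all 49 replicates was not run, because distance columns were read for these 2 strains only. The replicate block gave 36 calls, 27 of them among the 29. Deviations of same-numbered replicates correlated at 0.087 and 0.031 for replicate numbers 1 and 2 and at 0.138 and 0.204 for header numbers 15 and 22. No such correlation was taken for replicates with unlike numbers, so these values cannot show whether a number stands for a batch. The difference in rDNA share, 25.7 points, was 30.6 and 38.2 within header numbers 15 and 22, 27.8 under the replicate block, and 21.9 to 31.4 with 1 rtt109d replicate left out, where the exact permutation adjusted p was 0.0458 each time. Within header number 15 the log2 NDR pairs per listed pair differed by -0.85, the log2 reach ratio by -0.57 and the share beyond 1000 bp by -8.25 points. Within header number 22 the same differences were 0.35, 0.09 and -1.90 points, the first 2 of opposite sign. Ladder spacing differed by 3.56 to 11.1 bp with 1 rtt109d replicate left out, and the highest, without replicate 3, passed (exact permutation adjusted p = 0.0458). Genes with a lower compaction score, 65% in the main setting, were 99.4% by the plain log2 ratio and 74.6% among genes above the median signals. The other library measures kept their side of the threshold under the alternatives that gave a test. Where no cause is named, the cause was not tested. Depth limits single loci, with as few as 5 pairs at an NDR of RTT109 in replicate 1.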

Other observations

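Besides the genes named above, a few more stood low in the pooled short-fragment signal of rtt109d. They are given as values with no replicate check and were chosen after they were seen. By systematic name, YAR047C lies on the chromosome arm of FLO1 (YAR050W) and YMR326C on that of YMR320W, where losses were described. YAR047C had 23.9 in rtt109d and 90.6 in BY4741, and YBR012C had 19.7 in rtt109d and 65.0 in BY4741. On the log2 scale relative to the median gene these were -2.14 and -1.94. YMR326C had 86.7 in rtt109d and 238 in BY4741, and YHL008C had 445 in rtt109d and 1076 in BY4741. At the high end, after the 3 marker genes, YJR162C had 308 in rtt109d and 122 in BY4741 (1.12), and IRC6 had 15.8 in rtt109d and 6.78 in BY4741 (1.00).

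The marker genes also varied over the other pooled strains of the table. LEU2 had a short signal above 100 in 3 of the other 10 columns, URA3 in 4 and MET17 in 3.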
